A study of Mus musculus with 6 samples.

Results

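The genes described here encode the enzymes and binding proteins with which muscle stores, moves and regenerates high-energy phosphate and fuel: CKM, CKB, CKMT2, ENO3, PYGM, PGAM2, PFKM, FABP3, MB and AMPD1. Their probe sets were taken from the value table of an Affymetrix human genome array, as those whose single annotated symbol was 1 of these 10 genes, of 11963 genes so annotated. This gave 11 probe sets, 1 per gene and 2 for FABP3, of 22283 on the array. The study compared 3 arrays of myoblasts with 3 arrays of myotubes of C2C12, an established mouse line of muscle precursors, which divide as single cells (myoblasts) and on differentiation merge into long cells with many nuclei (myotubes). The labels name no treatment, time or genotype for either group. Nor do they tie the arrays to separate cultures, and p-values therefore reflect array-to-array spread that may be technical only. The title of myoblast array 3 speaks of growth and does not state the stage. Its group was taken from a short description that all 3 myoblast arrays share and that counts myoblasts 1 to 2 only, so how array 3 relates to the other 2 is not settled by the labels. The probes were designed for human transcripts while the labels give mouse as the organism. Which species the RNA came from was left unsettled by the files, and gene names are those of the human targets.

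Many enzymes of energy metabolism exist as a muscle form and as forms made in other tissues, encoded by separate genes. Creatine kinase keeps ATP topped up from phosphocreatine: CKM encodes the cytosolic muscle subunit, CKB the cytosolic subunit first described in brain, and CKMT2 the mitochondrial form of striated muscle. CKB is thus no muscle isoform in the strict sense. In developing muscle CKB is known to come before CKM, and β-enolase, encoded by ENO3, gradually takes the place of the α-enolase encoded by ENO1.

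Promoter sequence of the mouse orthologues is shown for Fabp3, Eno3 and Ckb, the genes whose human probe sets rose in myotubes, because myogenic factors of the MyoD family are known to bind E-boxes. An E-box is CANNTG, which reads the same on both strands as a pattern. The sequences are the 250 bases before the annotated start (RefSeq, GRCm38.p6), 5′ to 3′ on the strand of the gene, with E-boxes in capitals. They come from chr4:130308488-130308737 (+) for Fabp3, chr11:70656926-70657175 (+) for Eno3 and chr12:111672339-111672588 (-) for Ckb.
Fabp3: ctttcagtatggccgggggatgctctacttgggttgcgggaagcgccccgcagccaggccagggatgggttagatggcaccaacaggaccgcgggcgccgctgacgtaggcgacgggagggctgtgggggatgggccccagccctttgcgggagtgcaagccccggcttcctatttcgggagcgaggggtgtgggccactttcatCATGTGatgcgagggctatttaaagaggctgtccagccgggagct
Eno3: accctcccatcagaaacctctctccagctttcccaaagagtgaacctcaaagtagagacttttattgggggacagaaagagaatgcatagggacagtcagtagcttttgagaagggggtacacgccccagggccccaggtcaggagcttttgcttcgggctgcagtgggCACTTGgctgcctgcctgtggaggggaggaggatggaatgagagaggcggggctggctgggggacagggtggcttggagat
Ckb: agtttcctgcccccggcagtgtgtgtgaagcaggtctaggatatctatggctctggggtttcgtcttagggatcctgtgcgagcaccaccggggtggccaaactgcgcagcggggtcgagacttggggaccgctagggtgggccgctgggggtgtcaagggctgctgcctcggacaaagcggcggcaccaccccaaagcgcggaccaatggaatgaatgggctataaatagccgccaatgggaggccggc

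The Fabp3 window held 1 E-box, beginning 45 bases before the start, and the Eno3 window 1, beginning 81 bases before it. The Ckb window held no E-box, and had instead the letters TATAAA, searched on both strands, beginning 28 bases before the start; these lie in the printed sequence in lower case. Of the 10 genes 9 had a promoter in the table, with 14 annotated starts, and 12 of these 14 windows held at least 1 E-box. E-boxes are common at this window length: 66.2% of all 32851 promoters in the table held 1, and 12.4% held TATAAA. The E-box form CAGCTG, the same on both strands, occurred in 6 of the 14 windows, 1 each of Ckm, Pgam2, Ckmt2 and Pygm and 2 of Mb, and in 13.0% of all promoters. TAAAAATA, a form of the site of MEF2 factors, was found on either strand in 1 of the 14 windows and in 2.5% of all promoters. Starts of 1 gene can overlap, as those of Mb and Pfkm do, so the 14 windows are not independent. These matches describe letters, not binding.

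The signals showed how far the array measured these genes at all. On each array, the highest signal among 27 control probe sets for Bacillus transcripts, taken here as not added to the samples, was taken as the level below which a value could not be told from background. It lay between 252 and 1040, and its geometric mean was 1.74 times higher on the myotube arrays than on the myoblast arrays. CKM, PYGM and PGAM2 did not exceed this level on any of the 6 arrays. Probe sets with a mean signal under the 40th percentile, 474, were left out of the test, which removed CKM, CKMT2, PYGM and PGAM2. The test covered 7 of the 11 probe sets, from 6 of the 10 genes.

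Of these 7 probe sets 4 rose in myotubes and 0 fell (limma adjusted p under 0.05): both of FABP3, that of ENO3 and that of CKB. Over all 13329 probe sets tested, 11.3% were called in either direction and 4.93% were called higher. The 3 myotube signals lay above the 3 myoblast signals in the same 4 probe sets, as they did in 17.5% of all probe sets tested. The median log2 change of the 7 was 1.18, against 0.09 over all tested. All of the 7 but PFKM had a mean signal under 2000. The 8503 tested probe sets under 2000 had a median of 0.187, and 3.45% of them were called higher. After quantile normalization the median was 1.006 for the 7 and 0.015 for the tested probe sets under 2000. Since ENO3, AMPD1 and the second FABP3 probe set passed the filter through their myotube signals, these figures describe the tested probe sets and are not evidence for the whole group of genes.

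**Figure D1:**
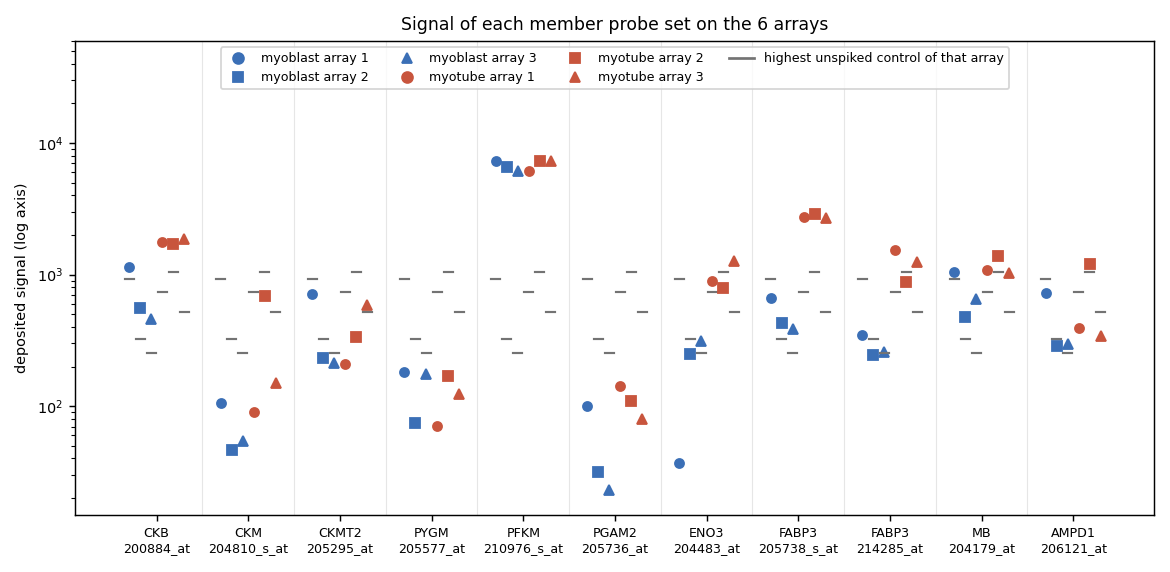
Deposited signal (log axis) of the 11 probe sets on the 6 arrays; blue marks are myoblast arrays and red marks myotube arrays, with shapes for arrays 1 to 3, and grey bars give the highest unspiked control of the same array. For CKB, ENO3 and both FABP3 probe sets every red mark lies above every blue mark, while CKM, PYGM and PGAM2 lie below the grey bars throughout.

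FABP3 encodes the fatty acid binding protein of heart and skeletal muscle, which carries fatty acids through the cytosol. Its probe set 205738_s_at read 666, 431 and 384 in myoblasts (arrays 1 to 3, in this order, here and for the other genes) against 2734, 2881 and 2695 in myotubes. The lowest myotube array was well above the highest myoblast array, and the myotube arrays lay close together (2770 ± 97.8, SD, n = 3, against 494 ± 151). The rise was 4.36-fold, with a log2 change of 2.12 ± 0.26 (SE; limma adjusted p = 0.00142), on the scale of log2(signal + 197), which understates the change of dim genes. On 2 of the 3 myoblast arrays the signal exceeded the highest control. This probe set was called under each of 16 other settings, with log2 changes from 1.78 to 2.31 and adjusted p from 0.000581 to 0.0337.

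The second FABP3 probe set, 214285_at, read 345, 244 and 257 in the myoblast group against 1529, 886 and 1252 in the myotube group. The groups again did not overlap, with a wider spread among the myotube arrays, and 1 of the 3 myoblast signals and 2 of the 3 myotube signals exceeded the control. The log2 change was 1.55 ± 0.35 (limma adjusted p = 0.0208), a rise of 2.92-fold whose size rests on the pseudocount, since most myoblast signals were below the control; it was 1.78 on the log2 scale with a smaller pseudocount and 1.24 with a larger one. The call was lost without myoblast array 2 or 3 or myotube array 1 (limma adjusted p = 0.0880, 0.0927 and 0.0791, in a range of 0.0113 to 0.349 over all settings). Of 5 markers of heart muscle, in which FABP3 is abundant, 2 were tested and neither was called. MYL7, MYH6 and NPPB, not tested, never exceeded the control, and TNNI3 did on 1 array. NPPA exceeded it on 5 arrays and changed by 1.96 on the log2 scale (limma adjusted p = 0.0732). The summed signal of these 5 ranged from 703 to 3037 in myoblasts and from 1782 to 6080 in myotubes, and its part in the FABP3 values was not tested.

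ENO3 encodes β-enolase, the muscle form of the enzyme that makes phosphoenolpyruvate in glycolysis. The myoblast signals were 36.9, 248 and 311, and the myotube signals 897, 785 and 1267. Every myotube array was above every myoblast array, and myoblast array 1 was the lowest. The log2 change was 1.63 ± 0.43 (3.10-fold, limma adjusted p = 0.0376). Only 1 myoblast signal and 2 myotube signals exceeded the control of their arrays, so the size of this rise rests on the pseudocount. The call was lost in 10 of 16 other settings, among them quantile normalization (log2 1.37, limma adjusted p = 0.0912) and the omission of any single array other than myoblast array 1 (adjusted p from 0.0781 to 0.0965; over all settings from 0.0224 to 0.127). The change was positive in each of the 16, between 1.23 and 2.31.

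CKB was the only creatine kinase of the 3 with a mean signal above the filter. The myoblast signals were 1149, 556 and 460, and the myotube signals 1760, 1711 and 1865, all above the control of their arrays. The myotube arrays lay within a narrow range (1779 ± 78.4, SD, n = 3), while myoblast array 1 stood between the other myoblast arrays and the myotubes. The log2 change was 1.18 ± 0.32 (2.26-fold, limma adjusted p = 0.0405). This call was lost in 11 of 16 other settings, including the omission of any single array other than myoblast array 1 (limma adjusted p from 0.0794 to 0.180; over all settings from 0.00465 to 0.748), and quantile normalization (adjusted p = 0.0568). As CKB is also made in brain, markers of neurons and glia were read. STMN2 and GFAP never exceeded the control, while SNAP25 did on 6 arrays and SYT1 on 5. In SNAP25 and SYT1 every myotube signal was above every myoblast signal, as in 17.5% of all probe sets tested. SNAP25 and SYT1 changed by 1.07 and 0.37 on the log2 scale (limma adjusted p = 0.0668 and 0.396). The summed signal of these 4 markers was 1743 to 2253 in myoblasts and 2786 to 4755 in myotubes, and its part in the CKB values was not tested.

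For the muscle subunit CKM the array gave no measurable level. The myoblast arrays read 106, 46.4 and 54.2, and the myotube arrays 89.9, 692 and 150. Myotube array 2 stood apart, but it was also the array with the highest control, 1040, and the groups overlapped. The mitochondrial form CKMT2 had 717, 234 and 214 in myoblasts and 208, 338 and 585 in myotubes, with 1 signal, on myotube array 3, above its control. Without the filter, log2 changes were 0.75 ± 0.40 for CKM and 0.02 ± 0.46 for CKMT2 (limma adjusted p = 0.274 and 0.982).

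PYGM, the muscle glycogen phosphorylase that frees glucose units from glycogen, gave 182, 74.5 and 175 in myoblasts and 70.0, 169 and 124 in myotubes. These values were mixed between the groups. PGAM2, the muscle subunit of phosphoglycerate mutase, gave 99.8, 31.8 and 23.2 in myoblasts and 142, 109 and 79.6 in myotubes, where the groups overlapped through myoblast array 1. Without the filter neither was called (log2 -0.10 ± 0.27 and 0.31 ± 0.21, limma adjusted p = 0.841 and 0.381). A signal at this level does not show that a transcript was absent, and how well human probes capture these transcripts in this RNA was not tested.

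PFKM, the muscle subunit of phosphofructokinase, which commits sugar to glycolysis, was far above the control on every array, at 7268, 6540 and 6156 on the myoblast arrays against 6169, 7347 and 7252 on the myotube arrays. The groups overlapped almost completely. The log2 change was 0.05 ± 0.17, with a 95% interval from -0.32 to 0.43 (limma adjusted p = 0.844), so these arrays leave room for a change of that size in either direction. It was called in none of 16 other settings (adjusted p from 0.427 to 0.998).

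MB encodes myoglobin, the oxygen-binding protein of oxidative muscle. The myoblast arrays read 1041, 475 and 648, and the myotube arrays 1080, 1383 and 1023. Myoblast arrays 2 and 3 were below all myotube arrays, but myoblast array 1 was above myotube array 3. The log2 change of 0.60 ± 0.33 did not pass (95% interval -0.12 to 1.33, limma adjusted p = 0.237). It was 0.84 without myoblast array 1 (limma adjusted p = 0.0640, the lowest of a range of 0.0640 to 0.972 over all settings). AMPD1, the muscle AMP deaminase of the purine nucleotide cycle, gave 724, 286 and 297 in myoblasts and 395, 1210 and 344 in myotubes. One array in each group was high, and the log2 change was 0.35 ± 0.49 (95% interval -0.73 to 1.43, adjusted p = 0.647, and from 0.359 to 0.959 over the other settings).

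The arrays of a group were not alike. Across the 13329 probe sets, which are not independent replicates, Pearson's r was 0.988 between myoblast arrays 2 and 3. It was 0.872 to 0.889 for the other pairs within a group. Myotube array 3 had 0.881, 0.87 and 0.876 with myoblast arrays 1, 2 and 3. Myotube arrays 1 and 2 had 0.843 and 0.841 with myoblast array 1, and 0.737 to 0.753 with myoblast arrays 2 and 3. The run records place the myotube arrays on 1 scan day and 1 chip lot, and the myoblast arrays on another day and on other lots, so neither can be told apart from the group. Consecutive laboratory codes, taken here as series though the records do not call them that, joined myoblast array 1 to the 3 myotube arrays. With this series as a block, the estimate sets the 3 myotube arrays against the single myoblast array 1, and equals the value within that series alone. On myoblast array 1 ENO3 read 36.9 and the FABP3 probe sets 666 and 345, all below its highest control, 920. The sizes of their changes in this fit therefore rest on values below that level.

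In that fit 1 of the 7 tested probe sets was called higher, FABP3 205738_s_at (log2 1.78 ± 0.30, limma adjusted p = 0.0223, and 0.0337 within the series alone), where 1.54% of all tested probe sets were. The second FABP3 probe set stood at 1.36 ± 0.45 (adjusted p = 0.166) and ENO3 at 2.31 ± 0.51 (adjusted p = 0.0575), a larger change than without the block. CKB stood at 0.55 ± 0.31 (adjusted p = 0.420), against 1.18 ± 0.32 without the block. None of the others passed: MB had 0.13 ± 0.37 in this fit, AMPD1 -0.26 ± 0.63 and PFKM -0.07 ± 0.21, with adjusted p of 0.907, 0.884 and 0.905. With the closely correlated myoblast arrays 2 and 3 averaged as 1 sample, FABP3 205738_s_at alone was called (log2 2.04 ± 0.34, limma adjusted p = 0.00332), and ENO3, CKB and FABP3 214285_at had adjusted p of 0.0863, 0.160 and 0.0878.

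**Figure D2:**
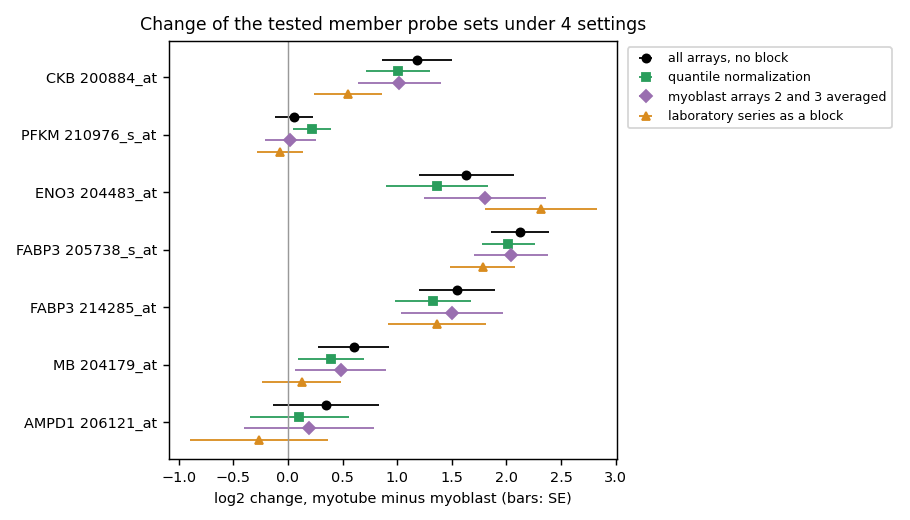
Log2 change (myotube minus myoblast, with SE) of the 7 tested probe sets in 4 fits: all arrays, quantile normalization, myoblast arrays 2 and 3 averaged, and laboratory series as a block. FABP3 205738_s_at stays between 1.78 and 2.12, CKB moves from 1.18 to 0.55, and ENO3 ranges from 1.37 to 2.31.

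The forms of these enzymes made in other tissues were read next, from a list of 19 genes of which 16 were on the array, with 13 probe sets of 10 genes tested. Of the 13, 3 fell and 0 rose (median log2 change -0.34). Of all 13329 probe sets tested, 11.3% were called, 853 lower and 657 higher. FABP5, the fatty acid binding protein first described in skin, had 8116, 13634 and 14926 in myoblasts and 1830, 2291 and 4025 in myotubes. No myotube array reached the myoblast range, and FABP5 fell by 2.12 ± 0.30 on the log2 scale (4.34-fold lower, limma adjusted p = 0.00279), beside the rise of FABP3. With the series as a block it had -1.58 ± 0.36 (adjusted p = 0.0646; from 5.93e-05 to 0.0709 over all settings).

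PFKP, the phosphofructokinase subunit named for platelets, had 10918, 10924 and 10383 in myoblasts and 3070, 3326 and 2818 in myotubes. Both groups were tight, and PFKP fell by 1.75 ± 0.16 on the log2 scale (3.35-fold lower, limma adjusted p = 0.000465). It was called in each of 16 other settings, with log2 changes between -1.80 and -1.63 and adjusted p up to 0.00775. The liver subunit PFKL had changes of 0.62 ± 0.22 and 0.29 ± 0.21 in its 2 probe sets, neither past the threshold (adjusted p = 0.0911 and 0.364), though the first was called higher without myotube array 3 (0.77 ± 0.21, adjusted p = 0.0493). PFKM was given above. With all arrays 1 of the 3 phosphofructokinase subunit genes was thus called.

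For ENO1, the enolase of most tissues, 1 of 3 tested probe sets was called. This was 217294_s_at, with 24108, 19376 and 19208 in myoblasts and 12484, 9018 and 13704 in myotubes (log2 -0.84 ± 0.21, limma adjusted p = 0.0334). The other 2 had -0.35 ± 0.30 and 0.86 ± 0.40 (adjusted p = 0.442 and 0.178). The latter, 216554_s_at, was called higher without myoblast array 1 (1.33 ± 0.31, limma adjusted p = 0.0172; from 0.0172 to 0.982 over all settings). The fall of 217294_s_at lost its call in 8 of 16 other settings (limma adjusted p from 0.0172 to 0.133). Among these was the omission of myoblast array 2 or 3 or myotube array 1 or 2. ENO2, the neuronal enolase, had -0.52 ± 0.39 (adjusted p = 0.387). The probe sets of 1 gene can match different transcripts, so the direction for ENO1 was not settled.

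Counterparts of PYGM, PGAM2 and AMPD1 were readable, while CKMT1A and CKMT1B, those of CKMT2, had no probe set annotated to them alone. The phosphorylases PYGB and PYGL had changes of -0.33 ± 0.47 and 0.07 ± 0.24 (limma adjusted p = 0.656 and 0.868), and the mutase PGAM1 -0.33 ± 0.21 (adjusted p = 0.310). The AMP deaminases AMPD2 and AMPD3 had -0.34 ± 0.19 and 0.84 ± 0.31 (adjusted p = 0.255 and 0.104). None of these 5 genes passed with all arrays. All probe sets of FABP1, FABP2, FABP4, FABP6, FABP7 and NGB lay below the filter.

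Other genes of glycogen, glucose, adenylate and fat metabolism formed a list of 40, of which 37 were on the array with 42 tested probe sets of 28 genes. Of all 13329 probe sets tested, 11.3% were called in either direction, 853 lower and 657 (4.93%) higher. Of the 42 on this list, 1 rose and 7 fell (median log2 change -0.18). The rise was that of PPP1R3C, which targets protein phosphatase 1 to glycogen: 4702, 3889 and 3725 in myoblasts against 10764, 13546 and 11936 in myotubes. The lowest myotube array was more than 2 times the highest myoblast array (2.86-fold, log2 1.51 ± 0.18, limma adjusted p = 0.00114), and the call held in each of 16 other settings (adjusted p up to 0.0263). UGP2, which makes the UDP-glucose used for glycogen, fell by 0.90 ± 0.18, and the branching enzyme GBE1 by 0.96 ± 0.23 (adjusted p = 0.0129 and 0.0238). Calls of these genes were lost with the series as a block (log2 -0.95 and -0.63, adjusted p = 0.0560 and 0.278; from 0.00758 to 0.135 for UGP2 and from 0.00651 to 0.511 for GBE1 over all settings).

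In glycolysis 3 of 4 tested probe sets of PGK1 (phosphoglycerate kinase) and both of TPI1 (triosephosphate isomerase) fell. PGK1 had log2 changes of -1.02 ± 0.19, -1.09 ± 0.20 and -1.28 ± 0.27 (limma adjusted p = 0.00930, 0.00829 and 0.0150), and the other had 0.09 ± 0.51 (adjusted p = 0.917). TPI1 fell by 1.23 ± 0.20 and 0.76 ± 0.22 (adjusted p = 0.00463 and 0.0474). The second of these calls, TPI1 200822_x_at, was lost in 10 of 16 other settings, among them the omission of any single array other than myoblast array 1 (adjusted p from 0.0198 to 0.169 over all settings). With the series as a block TPI1 213011_s_at was called (adjusted p = 0.0490, and 0.0849 within the series alone), and none of the 3 PGK1 probe sets named first was (adjusted p from 0.0828 to 0.183), nor the fourth (0.930). Probe sets of GPI, ALDOA, ALDOC, GAPDH, PKM, LDHA, LDHB, HK1, HK2 and SLC2A1 did not pass with all arrays, but some did in single settings. LDHA (lactate dehydrogenase A) had -0.62 ± 0.27 with all arrays and was called lower after quantile normalization (-1.02 ± 0.13, limma adjusted p = 0.00180) and with the series as a block (-1.07 ± 0.19, adjusted p = 0.0260), though not within the series alone (adjusted p = 0.0682). LDHB 201030_x_at was called lower after quantile normalization only (-0.69 ± 0.14, limma adjusted p = 0.0130, against 0.271 with all arrays). For GAPDH 213453_x_at the direction rested on myoblast array 1, which read 229210 where myoblast arrays 2 and 3 read 52675 and 50818. It had 0.38 ± 0.55 with all arrays, was called lower with the series as a block (-1.05 ± 0.21, limma adjusted p = 0.0434, and 0.152 within the series alone), and was called higher without myoblast array 1 (1.10 ± 0.17, adjusted p = 0.00320). Without myoblast array 1, GAPDH 212581_x_at and 217398_x_at were called higher too (log2 1.57 and 1.51, limma adjusted p = 0.00330 and 0.00294). With the series as a block these had -0.72 and -0.69. Both ALDOA probe sets were also called higher without myoblast array 1 (0.97 and 0.92, limma adjusted p = 0.00391 and 0.00397). So was COX6A2, outside glycolysis (1.36, limma adjusted p = 0.0168, against 1.06 and 0.0836 with all arrays). In the same setting GYS1, ACADM and PKM 201251_at were called lower (-0.90, -1.24 and -0.56, limma adjusted p = 0.0315, 0.0155 and 0.0499). The count for this list was 17, 7 of them higher, without myoblast array 1, and 4 without myoblast array 3 or myotube array 1 or 2.

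**Figure D3:**
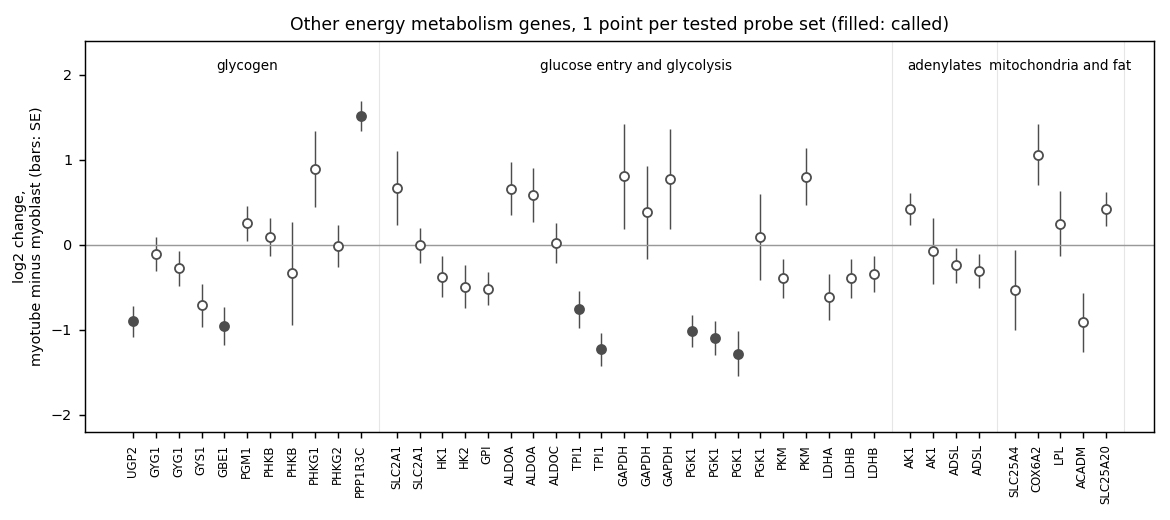
Log2 change (myotube minus myoblast, with SE) of the 42 tested probe sets of other energy metabolism genes, 1 point each, ordered by pathway; filled points passed limma's adjusted p under 0.05. PPP1R3C is the filled point above 0, at 1.51, and the 7 filled points below 0 are UGP2, GBE1, 2 of TPI1 and 3 of PGK1.

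The labelled cell stages were read from other genes. Of 8 tested myotube markers 7 rose, where 4.93% of all tested probe sets were called higher. The summed signal of 9 such markers went from 971 to 2686 in myoblasts to 18859 to 20464 in myotubes, without overlap. MYOG never exceeded the control. The tested myotube markers passed the filter through their myotube signals, so their count describes them and is not a test of the labelled stages. Of 5 markers of dividing cells 4 fell, where 853 of all 13329 tested probe sets were called lower. The other, MKI67, did not pass (log2 -0.38, limma adjusted p = 0.290), and its groups overlapped. Markers of other cell types moved as well: 5 of 5 fibroblast markers rose, with a summed signal of 64994 to 125470 in myoblasts and 234430 to 347900 in myotubes, and so did 2 of 2 tested smooth muscle markers (5246 to 9904 against 22887 to 25699), while no adipocyte marker passed the filter. Whether cells of these other types were present was not tested, nor was the part of these markers in the changes of FABP3, ENO3 and CKB. In these bulk samples fewer cells of a type and less RNA per cell cannot be told apart.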

How the data were processed

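Each probe set has 1 deposited intensity per array, not log-transformed. The submitters' processing notes name MAS5 for this step and give no version. Per the file headers, the other deposited files are run records (unit: other), read for laboratory code, chip lot and day of scanning. The 68 control probe sets were left out. The platform annotation of 2016 gave 19065 of the other 22215 probe sets 1 symbol, 1043 several and 2107 none.

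Signals were taken as log2(signal + 197), 197 being the 25th percentile of the table, and probe sets with a mean under the 40th percentile were dropped. Groups were compared on the other 13329 with limma 3.58.1 in R 4.3.3 (lmFit, eBayes with trend, two-sided), with Benjamini-Hochberg adjustment over all of them and a threshold of 0.05; ± after a log2 change is its SE. The fit was tested on simulated data, where estimates were close to the changes put in. In it 200 of 13329 probe sets were changed, while 1510 were called in the data, so the adjustment was stricter in the simulation. There, at a log2 change of 1, 0 of the 200 were called. At 2, 133 of 200 were called, with 8 false calls. These counts do not give the power of the fit on the data, where some changes near 1 were called. A probe set that did not pass may still differ. Precision is limited by the number of arrays, 3 per group. The members, lists and tests were chosen with earlier results of these data known. Named were every probe set of the 10 genes and every called probe set of the counterpart and pathway lists; uncalled ones of these lists, and calls gained in single settings, were added after their values were seen. Alternatives concerned the pseudocount, filter, scaling, eBayes trend, blocks, averaging of 2 arrays and single arrays left out. Promoters came from RefSeq (GRCm38.p6). Figures were drawn with matplotlib 3.10.9.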

Additional observations from a re-analysis of the deposited data

How the results depend on the processing

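Of the 7 tested probe sets of the 10 genes, 4 were called; the count was 2 with no filter or after quantile normalization, 1 with the laboratory series as a block, in the first series alone or with myoblast arrays 2 and 3 averaged, and from 1 to 4 with 1 array left out. It was 1 without myoblast array 2 or 3 or myotube array 1, and 2 without myotube array 2 or 3. FABP3 205738_s_at was called in all 16 settings. No change called with all arrays turned its direction in any of them. GAPDH 213453_x_at, not called with all arrays, was called at -1.05 with the series block and at 1.10 without myoblast array 1. The 3 calls among counterpart genes became 1 with the series block or in the first series alone. The 8 calls among pathway genes became 5 without trend or with the 2 arrays averaged, 4 with the series block, 1 in the first series alone, and from 4 to 17 with 1 array left out. Within that series the spread of the single myoblast array was taken to be that of the myotube arrays. Same-numbered arrays of the groups deviated together at r = 0.25, -0.18 and 0.38, and not every array correlated best with its own number, so the numbers were not taken as pairs; with the replicate block 4 member, 4 counterpart and 8 pathway probe sets were called, the added counterpart being a rise of ENO1 216554_s_at (log2 0.86, limma adjusted p = 0.0247). After quantile normalization 10 pathway probe sets were called, with LDHA and LDHB 201030_x_at among them. Signals near the highest unspiked control limit CKM, CKMT2, PYGM, PGAM2, AMPD1, ENO3 and FABP3 214285_at. The myoblast signals of FABP3 205738_s_at were near it too, at 666, 431 and 384 against 920, 326 and 252. MB and CKB exceeded it on every array, but on myoblast array 1 with only 1041 and 1149 against 920.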
